A study of Homo sapiens with 6 samples.

Results

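The genes described here were 10 that encode the cytoplasmic actins and proteins that control the turnover and bundling of actin filaments, out of 56638 gene symbols counted in the series. They were the cytoplasmic actins ACTG1 and ACTB, the filament-severing protein CFL1, the monomer-binding proteins PFN1, TMSB4X and TMSB10, the crosslinkers ACTN1 and ACTN4, and the tropomyosins TPM1 and TPM4. They were chosen by name, with the low ACTG1 count after GLCC1 siRNA already known from these libraries, so the difference of each of these genes between the groups is given as a description, without a test. All 10 passed the filter on low counts. Libraries made by RNA-seq from human colorectal cancer cells were compared, 3 titled control siRNA, made with a nonspecific siRNA, and 3 titled siRNA against lncRNA-AF339830, the long non-coding RNA that the study named GLCC1. The labels name SW480 cells and the study's methods name DLD-1 cells for this experiment, both lines derived from human colorectal tumours, and which of these was sequenced was not tested. Each group stands for a single siRNA condition in a single cell line, the genotype field says siRNA1 for all 6 libraries, and no label says that the libraries came from separate cultures. The study states for its experiments in general that biological replicates were collected independently, and whether this holds for these libraries was not tested, so their spread may be technical.

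The library names in the labels give the siRNAs the other way round from the titles, and if these names were right, every direction given here would reverse. FARP1, the annotated gene that contains the GLCC1 locus, had a normalised read count in CPM (the count relative to the library size after TMM scaling) of 109, 110 and 113 in the control siRNA libraries and 63.2, 65.6 and 65.4 in the GLCC1 siRNA libraries. No row was named GLCC1 or AF339830, and whether the FARP1 count holds reads of the locus was not tested. The libraries held 11948790 to 19042516 read pairs on genes. GLCC1 siRNA replicate 2, the smallest library, stood apart from the others of its group, with a chi-square per degree of freedom of 18.1 and 19.0 against them, where these differed from each other by 3.28, so results are also given without it. The 8 colorectal epithelial markers were all present at 1 CPM or more, and their summed level was 5644 to 6161 CPM in the control libraries and 2399 to 2770 CPM in the GLCC1 siRNA libraries, where KRT8 made most of the difference (a mean of 3584 CPM against 1177 CPM). KRT8, KRT18 (log2 fold change -1.82), KRT19 (-1.34), CDH1 (-0.53) and EPCAM (-0.30) fell with an edgeR adjusted p under 0.05. CDX2 was lower (-0.24) without passing. Not all members of that list were lower: CDH17 rose (134 CPM against 183 CPM, edgeR adjusted p = 0.0020). VIL1 was at 205 CPM in the control group and 237 CPM after GLCC1 siRNA, without passing. Markers of other cell types were low: the leukocyte gene PTPRC and the endothelial gene PECAM1 were at 0, and of 4 fibroblast genes only COL1A1 was counted, with a list sum of 11.8 to 15.0 CPM in the control libraries and 6.68 to 7.94 CPM after GLCC1 siRNA. Of 3 muscle markers 2, DES and MYH11, reached 1 CPM, and the list summed to 16.2 to 18.6 CPM in the control libraries and 7.32 to 9.62 CPM after GLCC1 siRNA. The 3 leukocyte genes summed to at most 0.280 CPM in any library, and the endothelial sum, all of it VWF, was 0.542 to 1.03 CPM in the control libraries and 0.318 to 1.40 CPM after GLCC1 siRNA. The part of these marker levels in the actin results was not tested. In bulk RNA, fewer cells of a type and less of a transcript per cell cannot be told apart.

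Actin monomers add to the fast-growing end of a filament and leave from the other, and cells hold a large reserve of monomers bound to thymosins and profilin. Cofilin cuts old filaments, the Arp2/3 complex and formins start new ones, capping proteins stop their growth, and tropomyosins and alpha-actinins set which filaments are stable or bundled. In epithelial cells the filaments form the cell cortex, the junctional belt and the cores of microvilli. β-actin (ACTB) and γ-actin (ACTG1) are nearly identical proteins made from separate genes, and when monomers run low the coactivators of the MRTF family enter the nucleus and act with the transcription factor SRF on promoters that carry a CArG box, many actin genes among them.

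ACTG1 was lower in every GLCC1 siRNA library, TPM4 was higher in every one, and ACTN4 was lower in every one, while the control and GLCC1 siRNA values of ACTB lay side by side. ACTG1, which encodes γ-actin, had 2054, 2566 and 2243 CPM in the control siRNA libraries and 538, 443 and 571 CPM in the GLCC1 siRNA libraries. The groups did not overlap, and the lowest control value stood far above the highest GLCC1 siRNA value. The mean was 2288 ± 259 CPM in the control group and 517 ± 66.7 CPM after GLCC1 siRNA (SD, n = 3 each), 22.6% of the control mean. The log2 fold change of ACTG1 was -2.14 with a standard error of 0.11, and it was -2.04 without GLCC1 siRNA replicate 2. Among 10378 genes averaging 10 CPM or more, ordered from the lowest fold change, ACTG1 stood at place 15. By level in CPM, it was the gene at place 22 in the control libraries and at place 165 in the GLCC1 siRNA libraries.

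ACTB, which encodes β-actin and is often used as a reference gene, had 1641, 1928 and 1788 CPM in the control libraries and 1907, 1418 and 1871 CPM in the GLCC1 siRNA libraries. Of its GLCC1 siRNA values, those of replicates 1 and 3 lay within the range of the control values and that of replicate 2 was the lowest of all 6 libraries. The log2 fold change of ACTB was -0.04 with a standard error of 0.11 and 0.09 without that library, and 0.08 with library totals as the only normalization, so that it has no stable sign. Within each library, where the scaling between libraries cancels, the ratio of ACTG1 to ACTB counts was 1.25, 1.33 and 1.25 in the control group and 0.282, 0.312 and 0.305 in the GLCC1 siRNA group. The log2 ratio differed by -2.09 between the groups, and replicate 2, whose ACTG1 and ACTB levels were both the lowest, did not stand apart in the ratio. ACTG1 gave 56.1% ± 0.854 of the counts of the pair of actins in the control group and 23.1% ± 0.933 after GLCC1 siRNA (SD, n = 3 each). Summed, the pair had 4073 ± 401 CPM in the control group and 2250 ± 337 CPM after GLCC1 siRNA (SD, n = 3 each), 55.2% of the control sum.

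**Figure D1:**
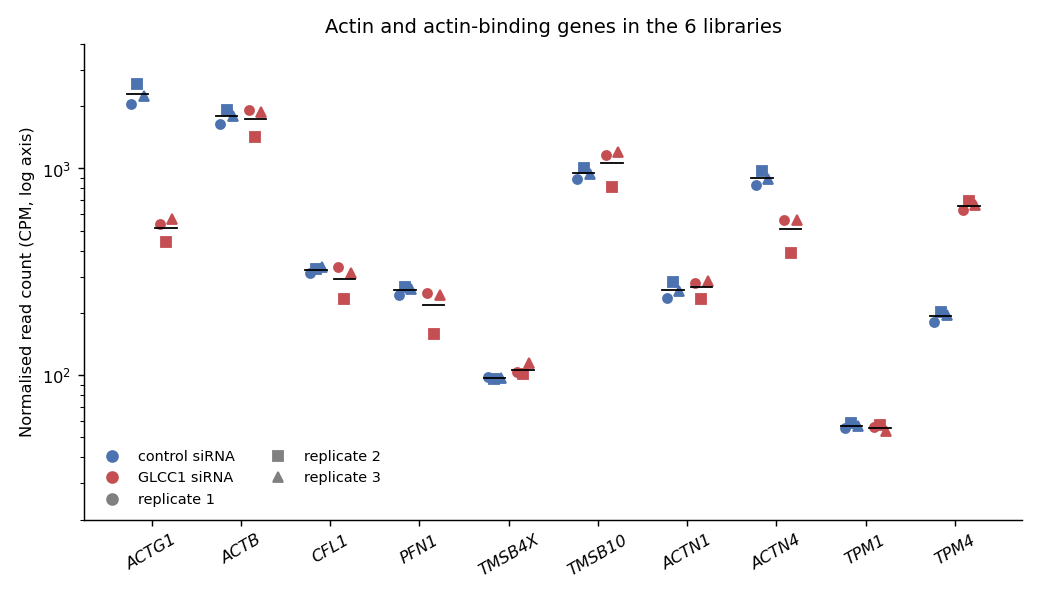
Normalised read count (CPM, log axis) of each of the 10 genes in the 3 control siRNA and 3 GLCC1 siRNA libraries, where each point is a library and each black line the group mean. ACTG1 sits between 2054 and 2566 CPM in the control libraries and between 443 and 571 CPM in the GLCC1 siRNA libraries, TPM4 moves the other way, and the points of ACTB overlap.

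**Figure D2:**
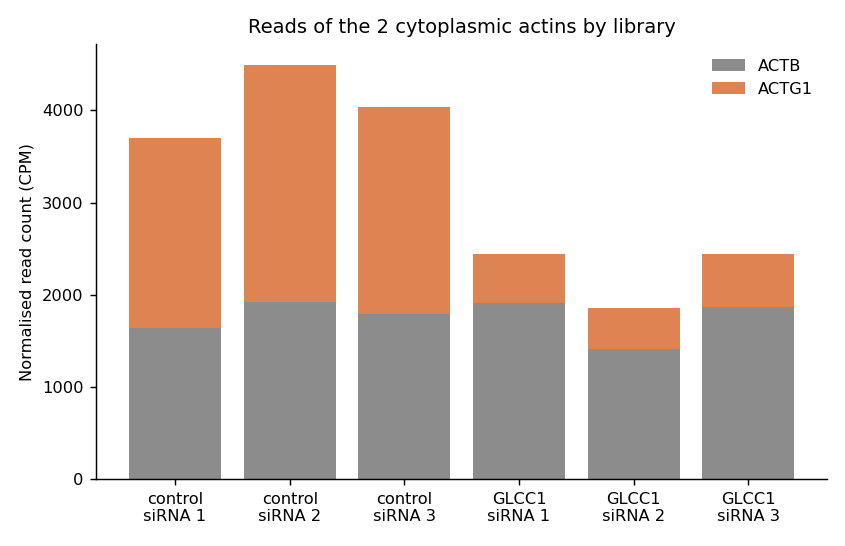
Stacked normalised read counts (CPM) of ACTB and ACTG1 in each of the 6 libraries. The sum falls from a mean of 4073 CPM to 2250 CPM between the groups, and nearly all of the lost part is ACTG1, which goes from 56.1% to 23.1% of the pair.

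By position, ACTG1 (ENSG00000184009) lies on the minus strand of chromosome 17 (GRCh37, chr17:79476439-79490873), and its canonical transcript has 6 exons. ACTB (ENSG00000075624) lies on the minus strand of chromosome 7 (chr7:5566040-5603533) and also has 6. Of 9 processed pseudogenes of ACTG1 in the files, 4 held any count, and their summed counts were between 0.0472% and 0.395% of the count of ACTG1. For ACTB the 10 pseudogenes came to between 0.0236% and 0.0617%. Adding them to their parents left the difference of the log2 ratio at -2.09. The exons of ACTG1 share 3.73% of their length with other genes and those of ACTB share 1.88%.

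The promoter of ACTG1 is shown because it holds a CArG box, the motif through which SRF acts on many actin genes. It also holds an E-box, and whether either motif has a part in these results was not tested. The 250 bases before the RefSeq start of ACTG1 (build GRCh38.p14, chr17:81512800-81513049, minus strand) are printed 5′ to 3′, with the capitals marking an E-box and then a CArG box.

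ACTG1: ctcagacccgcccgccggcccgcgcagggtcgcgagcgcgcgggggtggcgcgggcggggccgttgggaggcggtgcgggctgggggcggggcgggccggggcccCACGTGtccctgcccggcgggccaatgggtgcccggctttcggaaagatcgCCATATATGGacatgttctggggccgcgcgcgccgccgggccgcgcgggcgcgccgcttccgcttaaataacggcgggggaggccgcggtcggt

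The CArG box spans 94 to 85 bases before the start and the E-box, CACGTG, 145 to 140 bases before it. Searched in the same 250 bases on both strands of 35116 promoters, the CArG box stood in 1.16% of all promoters and the E-box in 6.34%. GGGCGG, the GC box, stood in 42.6% of all promoters and 4 times in that of ACTG1, with 1 pair of these sharing a base. The table held 15 promoters of 9 of the 10 genes. It had none for ACTB, so whether ACTB carries any of these motifs was not tested. A CArG box was also found before TPM4 and before ACTN1, so in 3 of the 9, whereas the E-box was found before ACTG1 alone and a GC box before all 9. These counts are of genes, some searched at several promoters, while the shares over all promoters count each promoter. The 50 bases around the CArG boxes of these other genes are shown to set them beside that of ACTG1, with the box in capitals. That of TPM4 lies 173 to 164 bases before 1 of its 3 starts (the same build, chr19:16067345-16067394, plus strand). That of ACTN1 lies 171 to 162 bases before 1 of its 4 starts (chr14:68977708-68977757, minus strand).

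TPM4: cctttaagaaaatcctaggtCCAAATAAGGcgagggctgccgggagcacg

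ACTN1: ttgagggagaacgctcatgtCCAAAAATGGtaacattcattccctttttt

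The 3 genes with the box stood at log2 fold changes of -2.14 (ACTG1), 0.05 (ACTN1) and 1.78 (TPM4), which is a description of 3 genes and not a test of the motif.

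The monomer-binding genes differed little. PFN1, profilin, which delivers monomers to growing ends, had 243, 268 and 263 CPM in the control libraries and 250, 158 and 245 CPM in the GLCC1 siRNA libraries. GLCC1 siRNA replicate 2 was far below the other 5 libraries, and the log2 fold change of -0.24 (standard error 0.14) became -0.06 without it. TMSB4X, thymosin β4, which sequesters monomers, had 97.9, 95.6 and 97.4 CPM in the control libraries and 103, 101 and 115 CPM in the GLCC1 siRNA libraries. These groups did not overlap, although the log2 fold change was only 0.13 with a standard error of 0.08. The count of TMSB4X is uncertain, since its processed pseudogenes, mainly TMSB4XP8, held 58.6% to 74.9% as many counts as the gene itself, and reads can be split between near-identical copies. TMSB10, thymosin β10, a close relative of TMSB4X, had 892, 1009 and 943 CPM in the control libraries and 1159, 818 and 1201 CPM in the GLCC1 siRNA libraries. Here replicate 2 was again the exception, below all controls where the other GLCC1 siRNA libraries were above them, so the log2 fold change was 0.16 (standard error 0.12) with it and 0.32 without it.

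CFL1, cofilin, which severs and dismantles filaments, had 312, 327 and 333 CPM in the control libraries and 332, 234 and 311 CPM in the GLCC1 siRNA libraries. The groups overlapped, and the log2 fold change of -0.15 (standard error 0.11) became -0.01 without GLCC1 siRNA replicate 2. The exons of CFL1 share 19.0% of their length with MUS81 and SNX32 on the other strand, and the sources used here do not state the strand setting of the count, so reads of these overlaps cannot be told apart from those of CFL1. The ratio of CFL1 to PFN1 was 1.26 ± 0.0328 in the control group and 1.36 ± 0.110 after GLCC1 siRNA (SD, n = 3 each).

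The alpha-actinins, which crosslink parallel filaments at junctions and stress fibres, parted from each other. ACTN4 (chr19:39138289-39222229, plus strand) had 828, 974 and 886 CPM in the control libraries and 566, 391 and 563 CPM in the GLCC1 siRNA libraries. All 3 GLCC1 siRNA values were below all 3 control values, at 56.6% of the control mean. The log2 fold change was -0.82 (standard error 0.12), or -0.66 without replicate 2. CAPN12, on the opposite strand, shares 14.2% of the exon length of ACTN4. ACTN1 had 237, 281 and 256 CPM in the control libraries and 281, 233 and 286 CPM in the GLCC1 siRNA libraries. Its values overlapped, and the log2 fold change was 0.05 (standard error 0.10), or 0.14 without replicate 2. The ratio of ACTN4 to ACTN1 went from 3.47 ± 0.0110 in the control group to 1.89 ± 0.183 after GLCC1 siRNA (SD, n = 3 each), and it differed by -0.88 on the log2 scale.

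Tropomyosins run along the filament and decide which myosins and severing proteins can bind it. TPM4 (chr19:16177831-16213812, plus strand) had 181, 202 and 196 CPM in the control libraries and 627, 694 and 664 CPM in the GLCC1 siRNA libraries. Every GLCC1 siRNA value was above every control value, the level was 342% of the control mean, and GLCC1 siRNA replicate 2 held the highest value. The log2 fold change of TPM4 was 1.78 (standard error 0.08), or 1.74 without replicate 2. TPM4 stood at place 10348 of the 10378 genes ordered from the lowest fold change, and its place by level went from 965 to 106. TPM1 had 55.4, 58.9 and 56.7 CPM in the control libraries and 56.0, 57.1 and 53.4 CPM in the GLCC1 siRNA libraries. Its groups overlapped, and the log2 fold change was -0.04 (standard error 0.09). TPM4 counts were 3.39 ± 0.0987 times those of TPM1 in the control group and 11.9 ± 0.644 times after GLCC1 siRNA (SD, n = 3 each). Antisense genes cover 22.7% of the exon length of TPM1.

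**Figure D3:**
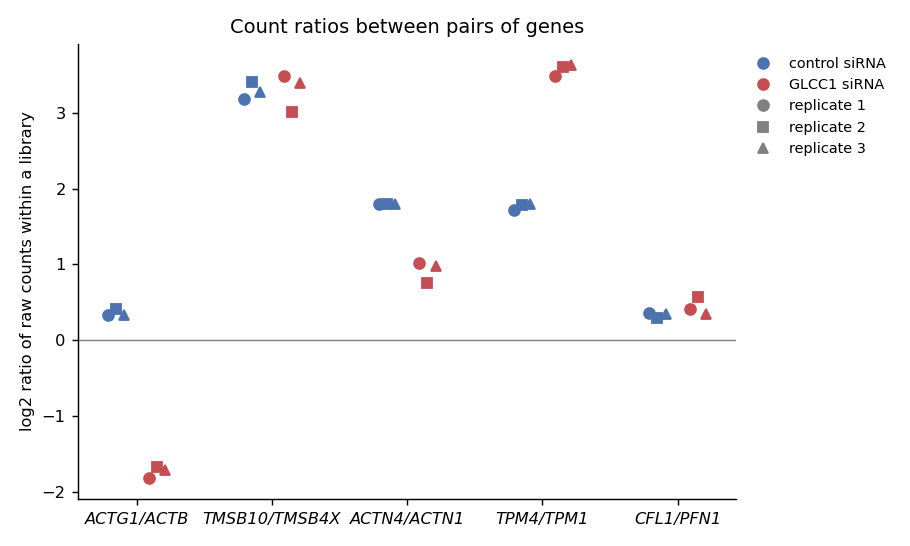
Ratio of counts within each library for pairs of related genes on a log2 scale, with each point a library and the horizontal line at a ratio of 1. The ratios of ACTG1 to ACTB and of ACTN4 to ACTN1 are lower in all 3 GLCC1 siRNA libraries than in all 3 control libraries, that of TPM4 to TPM1 is higher, and the points of TMSB10 to TMSB4X overlap.

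Of the 10 genes, 3 passed an adjusted p of 0.05 in edgeR, 2 lower (ACTG1 and ACTN4) and 1 higher (TPM4), where 31.6% of all 23074 tested genes passed, 16.7% lower and 14.9% higher. All 10 averaged more than 10 CPM, and of all genes averaging 10 CPM or more 49.9% passed, 29.8% lower and 20.1% higher. The libraries of the groups did not overlap for 2 genes that were lower (ACTG1 and ACTN4) and 2 that were higher (TPM4 and TMSB4X), where 24.0% of all genes had all 3 GLCC1 siRNA libraries below the controls and 22.3% above them. The genes were chosen with this contrast in view, so nothing is read from these counts. Without GLCC1 siRNA replicate 2, 2 passed as lower and 4 as higher, with TMSB4X, TMSB10 and ACTN1 added, while the number of all genes passing rose from 7293 to 9920. The median log2 fold change of the 10 genes was -0.04, against 0.03 over all genes tested and -0.07 over those averaging 10 CPM or more. In summed level, the 10 genes had 7105 ± 585 CPM in the control group and 5416 ± 753 CPM after GLCC1 siRNA (SD, n = 3 each). Of this difference ACTG1 made -1770 CPM, ACTN4 -389 CPM and TPM4 468 CPM, and the 9 genes without ACTG1 together differed by 80.9 CPM.

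**Figure D4:**
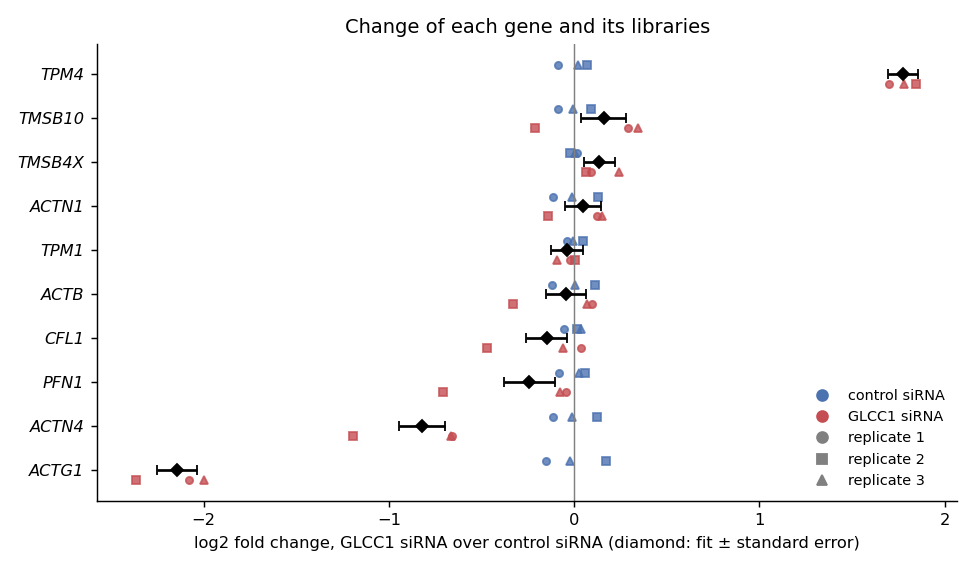
Log2 fold change of each of the 10 genes, GLCC1 siRNA over control siRNA, as a diamond with its standard error from edgeR, and the log2 level of each library relative to the control mean as points. ACTG1 (-2.14), ACTN4 (-0.82) and TPM4 (1.78) lie away from 0, and the other diamonds lie between -0.24 and 0.16. GLCC1 siRNA replicate 2 is the lowest point of ACTG1, ACTN4, ACTB, CFL1, PFN1, TMSB10 and ACTN1.

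Set side by side per kilobase of merged exons, the levels in the control libraries ran from TMSB10 (2057 CPM per kilobase) over ACTG1 (565 ± 63.9) and ACTB (405 ± 32.6) to PFN1 (161 ± 8.12), ACTN4 (146 ± 12.1), TMSB4X (56.9 ± 0.715), CFL1 (55.3 ± 1.82), ACTN1 (18.0 ± 1.53), TPM4 (15.6 ± 0.859) and TPM1 (3.88 ± 0.121). The libraries of PFN1 and ACTN4 overlapped in this order, as did those of TMSB4X and CFL1. With the length of the canonical transcript in place of merged exons, CFL1 moved above ACTN4 and TMSB4X and TPM4 above ACTN1, while the first 4 places kept their order. ACTG1 was 2nd by either length in the control group. In the GLCC1 siRNA group it stood below TMSB10 and ACTB and could not be separated from PFN1 (128 ± 16.5 against 136 ± 32.3 CPM per kilobase of merged exons), nor by canonical length from PFN1 and TPM4 (269.6, 269.8 and 267 CPM per kilobase for ACTG1, PFN1 and TPM4).

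Genes whose profile over the 6 libraries was most like that of ACTG1 were looked for among 10377 others, by the mean absolute difference of log2 CPM relative to the control mean. The closest was RNF181, a ubiquitin ligase, with a difference of 0.085 on the log2 scale and CPM of 40.3, 43.1 and 41.7 in the control libraries and 8.97, 7.56 and 10.7 in the GLCC1 siRNA libraries. It was followed by the pseudogene UQCRFS1P1 and the glycolytic enzyme ALDOC (0.13 each), and by the translation initiation factor EIF3C, which has a near-identical copy, EIF3CL, and the serpin SERPINB5 (0.14 each).

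The close relatives of the 10 genes did not follow 1 direction. The muscle actins ACTA1, ACTC1 and ACTG2 and the actin-like ACTBL2 had at most 5 counts in any library. ACTA2, smooth muscle actin, had 11, 26 and 20 counts in the control libraries and 49, 18 and 52 in the GLCC1 siRNA libraries, so its groups overlapped although it passed (log2 fold change 1.03, edgeR adjusted p = 0.021), and it did not pass in 4 of the 6 fits that leave out a library. Other genes, FAS and ACTA2-AS1 on the other strand among them, share 36.2% of the exon length of ACTA2, and their part in its counts was not tested. The muscle actinins ACTN2 and ACTN3 had at most 8 counts in any library. PFN2 fell from 62.9, 59.8 and 63.2 CPM to 32.8, 43.0 and 35.6 CPM (log2 fold change -0.74, standard error 0.11, edgeR adjusted p = 1.3e-04). CFL2 fell from 97.1, 90.0 and 96.4 CPM to 39.7, 47.9 and 40.0 CPM (log2 fold change -1.16, standard error 0.10, edgeR adjusted p = 1.6e-06). Unlike CFL1, the other cofilin thus had groups that did not overlap. DSTN, the third of this family, fell (log2 fold change -0.33, edgeR adjusted p = 0.0093), a call lost with library totals as the only normalization and in 2 fits without a library. The thymosin TMSB15B rose (log2 fold change 0.90, edgeR adjusted p = 0.029) at 1.79 CPM in the control group, although its groups overlapped. This call too was lost in 4 fits without a library, while TMSB15A had no count. Of the other tropomyosin genes, TPM2 rose from 97.7, 97.8 and 105.6 CPM to 132, 131 and 142 CPM (log2 fold change 0.43, edgeR adjusted p = 0.0012). TPM3 fell from 401, 393 and 411 CPM to 263, 258 and 272 CPM (log2 fold change -0.60, edgeR adjusted p = 3.5e-05). Of the 4 tropomyosin genes, then, TPM4 and TPM2 were higher after GLCC1 siRNA, TPM3 was lower and TPM1 overlapped.

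The wider actin machinery was read from a list of 142 other genes in 14 roles, of which 136 were tested. In these, 61 genes fell, 17 rose and 58 did not pass, where 16.7% of all genes tested fell and 14.9% rose. The median log2 fold change was -0.23, against 0.03 over all genes. With normalization by library totals alone, which moved the median of all genes by 0.12, 49 fell and 26 rose, so that the share of calls that rose was 34.7% in place of 21.8%, while over all genes it went from 47.0% to 62.9%. Without GLCC1 siRNA replicate 2, 76 fell and 23 rose. Among the 115 listed genes averaging 10 CPM or more, 54 fell and 14 rose (59.1% passing, where 49.9% of all genes at this level passed). Their median log2 fold change was -0.24, against -0.07 over all genes at this level. Over all genes at this level 29.8% fell and 20.1% rose, so with TMM scaling falls outnumbered rises there too. The counts in single roles rest on 3 to 15 genes, and none was tested against other genes.

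**Figure D5:**
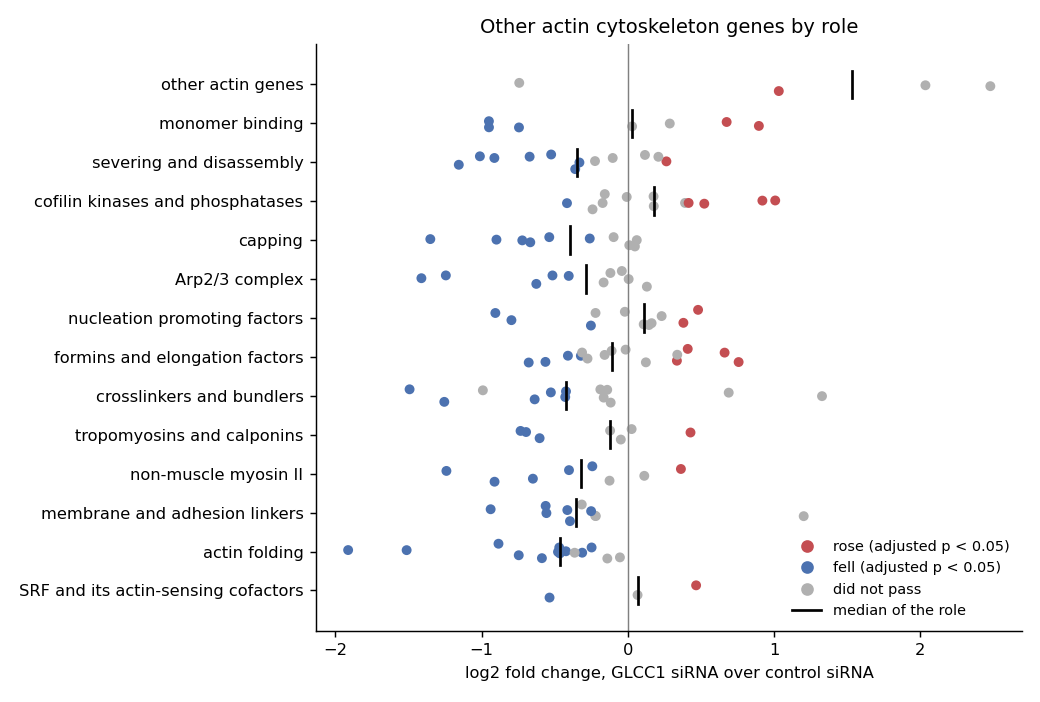
Log2 fold change of each tested gene of the 14 roles of the actin list, GLCC1 siRNA over control siRNA, coloured where the adjusted p of edgeR was under 0.05 and grey elsewhere, with a black line at the median of each role. Of the 14 actin-folding genes 11 are coloured as falls. The role of kinases and phosphatases of cofilin, which includes kinases upstream of them, has a median of 0.18.

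The role with the most falls in number was actin folding, the chaperonin CCT and the prefoldin that hands it newly made actin and tubulin. Of its 14 genes 11 fell, none rose and 3 did not pass, with a median log2 fold change of -0.47, and 9 fell with library totals. The prefoldin subunit PFDN4 fell from 37.1, 32.3 and 35.6 CPM to 7.56, 12.4 and 8.39 CPM (log2 fold change -1.91, standard error 0.15, edgeR adjusted p = 1.0e-06). TCP1, a chaperonin subunit named here after its values were seen, fell from 408, 389 and 389 CPM to 128, 158 and 131 CPM (log2 fold change -1.51, standard error 0.09). Every library of the GLCC1 siRNA group was below every control library for 12 of the 14, where this held for 24.0% of all genes tested. Over all genes averaging 10 CPM or more 29.8% fell and 20.1% rose.

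In the monomer-binding group, 3 of 7 genes fell and 2 rose. The counts of this and the next roles take in every tested gene, also those under 10 CPM. Over all genes tested 16.7% fell and 14.9% rose, and over those averaging 10 CPM or more 29.8% fell and 20.1% rose. CAP1, which strips cofilin from monomers and recharges them, fell (log2 fold change -0.95, standard error 0.08, edgeR adjusted p = 8.9e-07), whereas its relative CAP2 rose by 0.68 (standard error 0.12, edgeR adjusted p = 5.7e-04). Of 12 severing and disassembly genes 7 fell and 1 rose, with CFL2 the largest fall, and with library totals 4 fell and 2 rose. The gene that rose was COTL1, coactosin-like protein (log2 fold change 0.26, edgeR adjusted p = 0.047), and this call was lost in 6 of 12 alternative fits. Of 10 capping genes 6 fell and none rose, and the largest fall by the naming rule was that of EPS8 (-0.72, standard error 0.08, edgeR adjusted p = 2.0e-05), which caps and bundles filaments of microvilli.

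A role of 12 genes held the kinases and phosphatases of cofilin and kinases upstream of them. In it 4 rose, 1 fell and 7 did not pass, and with library totals 7 rose and 1 fell. Over all genes tested 14.9% rose and 16.7% fell, and over those averaging 10 CPM or more 20.1% rose and 29.8% fell. The upstream kinases were PAK1, PAK2, ROCK1 and ROCK2. Of these, ROCK1 (log2 fold change 0.42) and ROCK2 (0.52), named after their values were seen, were among the rises. LIMK1, the kinase that switches cofilin off, rose from 38.1, 45.0 and 41.9 CPM to 92.4, 66.6 and 92.0 CPM (log2 fold change 1.01, standard error 0.12, edgeR adjusted p = 4.0e-05). SSH1, a slingshot phosphatase that switches cofilin on again and was named after its values were seen, also rose, with a log2 fold change of 0.92. PAK1, a kinase upstream of LIMK1, fell by 0.42 (standard error 0.08, edgeR adjusted p = 0.0016).

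Among the genes that start filaments, 5 of the 10 Arp2/3 genes fell and none rose, or 5 and 1 with library totals. Over all genes tested 16.7% fell and 14.9% rose, and over those averaging 10 CPM or more 29.8% fell and 20.1% rose. The subunit ARPC3 fell from 72.5, 69.9 and 72.8 CPM to 22.8, 29.7 and 28.6 CPM (log2 fold change -1.41, standard error 0.11, edgeR adjusted p = 6.6e-07). Activators of the complex were divided, where 3 of 11 fell and 2 rose, or 2 and 5 with library totals. WASF1, a subunit of the WAVE complex, fell by 0.91 (edgeR adjusted p = 1.7e-04) and WASL, or N-WASP, rose by 0.48 (edgeR adjusted p = 0.0021). Formins and elongation factors were also divided, 4 of 15 in each direction (2 falls and 5 rises with library totals), with FMNL3 higher (0.66, edgeR adjusted p = 3.7e-04) and VASP, which protects growing ends from capping, lower (-0.68, edgeR adjusted p = 7.6e-05).

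In the other crosslinkers and bundlers, 6 of 13 fell and none rose, or 9 and none without GLCC1 siRNA replicate 2. The counts of this and the next roles take in every tested gene, also those under 10 CPM. Over all genes tested 16.7% fell and 14.9% rose, and over those averaging 10 CPM or more 29.8% fell and 20.1% rose. The espin gene ESPN, which bundles the cores of microvilli, fell by 1.25 (standard error 0.17, edgeR adjusted p = 9.5e-05). In the tropomyosin and calponin group 3 of 7 fell and 1 rose, and CNN3, a calponin, fell by 0.73 (standard error 0.08, edgeR adjusted p = 1.2e-05). Of the 8 genes for heavy and light chains of non-muscle myosin II, 5 fell, or 3 with library totals, and 1 rose. MYH10, a heavy chain, fell from 257, 256 and 262 CPM to 137, 136 and 139 CPM (log2 fold change -0.91, standard error 0.07, edgeR adjusted p = 1.1e-06). The heavy chain MYH9 rose by 0.36 (standard error 0.10, edgeR adjusted p = 0.0097), which was lost without control siRNA replicate 1. Of 10 genes that link filaments to the membrane and to adhesions 6 fell and none rose, and RDX, radixin, fell by 0.94 (standard error 0.13, edgeR adjusted p = 1.1e-04). SRF itself fell by 0.54 (standard error 0.13, edgeR adjusted p = 0.0078), while the coactivator MRTF-B, listed as MKL2, rose by 0.47 (standard error 0.08, edgeR adjusted p = 4.9e-04). The other coactivator of that role, MRTF-A, listed as MKL1, did not pass (log2 fold change 0.07, standard error 0.14), and its groups overlapped. Of the 21 genes named by the largest rise or fall in a role, 19 passed in all 12 alternative fits, COTL1 and MYH9 being the exceptions. They were picked for passing in these same libraries, so this is no independent support.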

How the data were processed

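The authors mapped paired-end RNA-seq reads to hg19 (GRCh37) with TopHat2 2.0.11 and deposited unnormalised counts for each gene symbol, made with HTSeq, whose version and strand setting are not given in the sources used here. The 6 libraries were grouped by their titles. The tallies that HTSeq appends were removed. Reads with no annotated gene were 9.82% to 10.1% of all rows summed in the control siRNA libraries and 11.0% to 12.7% in the GLCC1 siRNA libraries.

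Genes with fewer than 5 counts summed over each condition were removed, which left 23074. Counts were scaled by TMM and fitted in edgeR 4.0.16 (R 4.3.3) with the robust quasi-likelihood test. Adjusted p-values are Benjamini-Hochberg values over all 23074 genes. Standard errors are the fold change over the root of the test's F statistic. The procedure was tested on simulated data. The 10 genes, the list of 142 others and the rules were chosen with earlier results of these data known. Named were the 10 genes, their paralogues and pseudogenes with at least 10 counts in every library, the 5 profiles nearest to ACTG1, and in each role the largest rise and fall with an adjusted p under 0.05, at least 10 CPM and no overlap between groups. Libraries of the same number did not deviate together (correlations of -0.13, -0.25 and -0.0026 over 14875 genes), so they were not paired. With 3 libraries in a group, p-values measure only the spread between these libraries. Alternatives were DESeq2 1.42.0, its size factors in edgeR, library totals, other filters and thresholds, the replicate block and each library left out. The restriction of the list to at least 10 CPM was added after the data were seen. Positions and lengths are from GENCODE 44 mapped to GRCh37, and promoters are from RefSeq (GRCh38.p14).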

Additional observations from a re-analysis of the deposited data

How the results depend on the processing

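With each library left out, the log2 fold change of ACTG1 was -2.22 to -2.04, that of ACTN4 -0.90 to -0.66 and that of TPM4 1.73 to 1.82, which describes genes chosen on these same libraries and is no independent support. The ACTG1 to ACTB log2 ratio differed by -2.12 to -2.05 with each library left out. The sign of the small values did not hold. ACTB had 0.078 with library totals as the only normalization, 0.014 without control siRNA replicate 2 and 0.086 without GLCC1 siRNA replicate 2 (range -0.11 to 0.086). ACTN1 had -0.0097 without control siRNA replicate 1 and -0.0033 without GLCC1 siRNA replicate 3 (range -0.0097 to 0.14), and TPM1 had 0.083 with library totals. With each library left out, CFL1 ranged from -0.24 to -0.0083, PFN1 from -0.35 to -0.056, TMSB4X from 0.079 to 0.17, TMSB10 from 0.063 to 0.32 and TPM1 from -0.059 to -0.0092. PFN1 passed as a fall with the filter of at least 1 count in any library, and TMSB4X passed as a rise with library totals.

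At an adjusted p under 0.001, 1130 genes rose and 1530 fell over all genes, and 5 rose and 31 fell in the actin list. With library totals the list had 26 rises and a median of -0.11, where the median of all genes was 0.15. With each library left out, the list had 13 to 23 rises, 48 to 76 falls and a median of -0.26 to -0.21, and all genes had 2381 to 4844 rises and 2833 to 5076 falls. GLCC1 siRNA replicate 2 gave the highest of these counts when left out, and the cause was not tested. With the replicate number as a block, 3009 genes rose and 3513 fell, the list had 16 rises and 55 falls, and the block changed no call among the 10 genes. Libraries that share a number had correlations of their deviations from the group means of -0.13, -0.25 and -0.0026. Canonical transcript lengths in place of merged exons raised the level per kilobase of every gene but TMSB10. Genes under about 1 CPM, the muscle actins among them, rest on too few counts to show a difference at this depth.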
